A study of Mus musculus with 4 samples.

Results

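Latrophilins, LAR-type receptor phosphatases, FLRT proteins and LRRTM4 are cell surface proteins that join the membranes of neurons across the synaptic cleft. Methylation of their genes was read by whole-genome bisulfite sequencing of somatosensory cortex from mice that were 2.5 months old. The 10 genes, grouped by their roles in synaptic adhesion with earlier results of these data known, were Adgrl1, Adgrl2 and Adgrl3 (latrophilins), Ptprs, Ptprd and Ptprf (LAR phosphatases), Flrt1, Flrt2 and Flrt3, and Lrrtm4. All rows of the authors' deposited table of differentially methylated regions that shared at least 1 bp with their RefSeq gene bodies were taken, which gave 33 of 101350 regions, in 7 of the 10 genes. The cKO group had 2 libraries of genotype Nsd1Nex-cKO and the control group 2 libraries labelled Nsd1fl/+. In the first, the histone H3 lysine 36 methyltransferase gene Nsd1 was deleted under Nex, a driver active in excitatory neurons of the forebrain, and the label of the control names no driver. The DNA came from whole tissue, so interneurons, glia and vessels contributed too, and a change in some cells cannot be told apart from a smaller change in many. The table holds 1 mean level per group and region, with no value per library and no coverage. No spread between libraries, interval or test over mice can therefore be set beside any difference below, and the depth is unknown.

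Latrophilins are adhesion G protein-coupled receptors, which sit mainly on the postsynaptic side and bind teneurins and FLRT proteins. LAR phosphatases are presynaptic receptors whose outer part binds several postsynaptic adhesion proteins and heparan sulfate, and whose inner part holds phosphatase domains and binds liprins. FLRT proteins also bind UNC5 receptors, and LRRTM4 organises excitatory synapses through heparan sulfate proteoglycans and neurexins. In neurons DNA is methylated at CG sites and, after birth, at cytosines outside CG, here listed as CHG and CHH, where H is A, C or T. H3 lysine 36 methylation is known to guide DNA methyltransferases to chromatin.

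Every CG region listed in these genes was more methylated in cKO. CG regions of the authors' deposited table overlapped the gene bodies 8 times, and 8 were higher and 0 lower in cKO, whereas 14.8% of the CG regions in all protein-coding genes were higher. The 8 lay in Adgrl2, Ptprs and Ptprf (2 each), Ptprd and Flrt1 (1 each). Of 25 CHH regions, 21 were higher and 4 lower, or 84.0% higher against 41.2% over all protein-coding genes. No CHG region overlapped a member, but CHG regions were rare, with 130 lower and 106 higher among the 35501 regions in protein-coding genes. Adgrl1, Flrt2 and Flrt3 carried 0 regions of any kind, as did 62.9% of all protein-coding genes and 21.4% of those of at least 50 kb. The genes were long, with a median of 88.2 kb against 17.2 kb for protein-coding genes, and longer genes hold more regions.

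**Figure D1:**
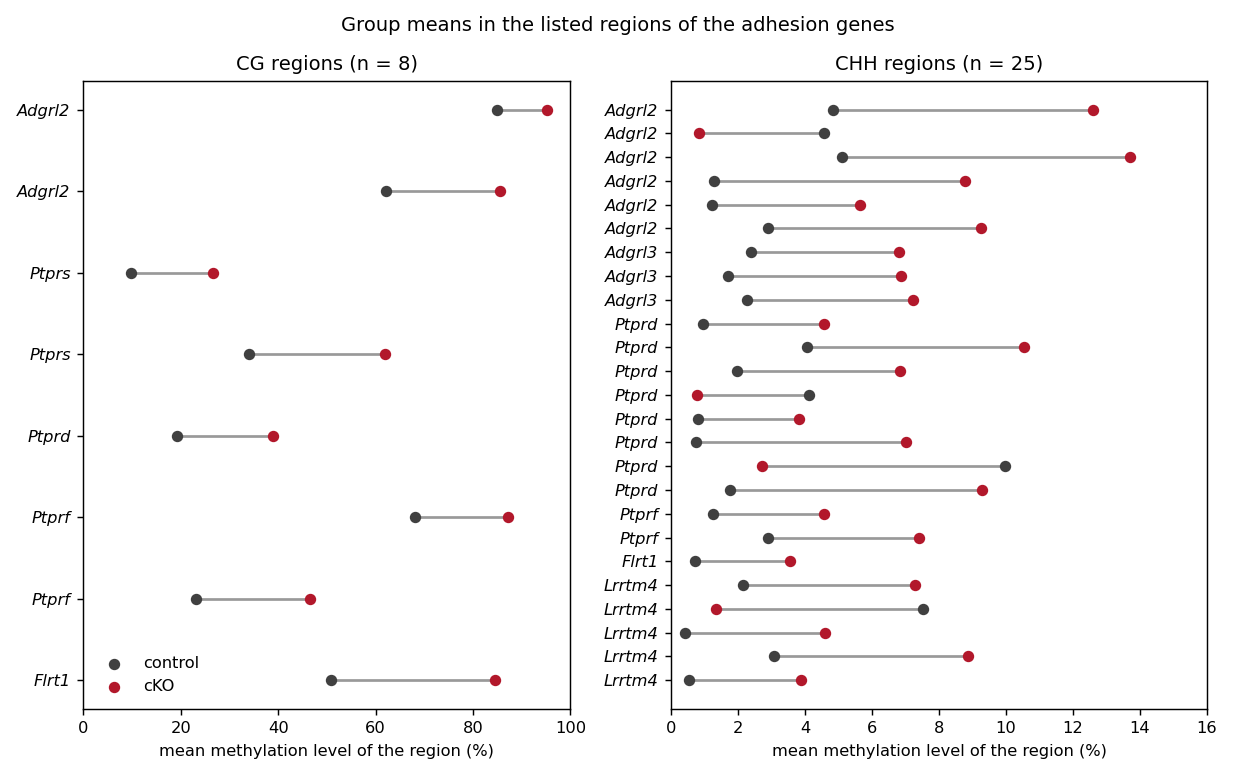
Mean methylation level in percent (x axis) of each listed region, 1 row per region labelled with its gene, for CG regions (left, 8) and CHH regions (right, 25, on a shorter axis); grey points are the control mean, red points the cKO mean. Red lies to the right of grey in all 8 CG rows and in 21 of 25 CHH rows.

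Counted by gene, 5 of the 10 members carried a CG region higher in cKO, where 7.26% of the 21775 protein-coding genes did. A lower CG region was found in 0 of 10, against 18.6% of all. In CHH, 6 of 10 carried a region higher (15.0% of all) and 3 of 10 a region lower (15.1% of all). Among the 8 members of at least 50 kb, which can be set beside 4934 genes of that length, 5 held a higher CG region (20.4% of such genes), 0 a lower CG region (42.5%), 6 a higher CHH region (44.1%) and 3 a lower CHH region (33.3%). Thus for lower CHH regions the share of long members was near that of other long genes.

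Per length of gene body, losses were few in these genes, and how dense the gains were depended on Ptprd. The 4.42 Mb of member gene bodies held 1.81 higher CG regions per Mb, against 2.32 per Mb over all protein-coding gene bodies, and 4.75 higher CHH regions per Mb against 7.63. Lower CG regions were at 0 per Mb against 13.4, and lower CHH regions at 0.905 per Mb against 10.9. Ptprd, the second longest protein-coding gene of the annotation, makes up 2271 kb of these bodies and holds 1 of the 8 higher CG regions. Without it the members had 3.26 higher CG regions per Mb, above the value for all genes, and 6.98 higher CHH regions per Mb, still below it. Lower regions stayed at 0 per Mb in CG and 0.931 per Mb in CHH without Ptprd.

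**Figure D2:**
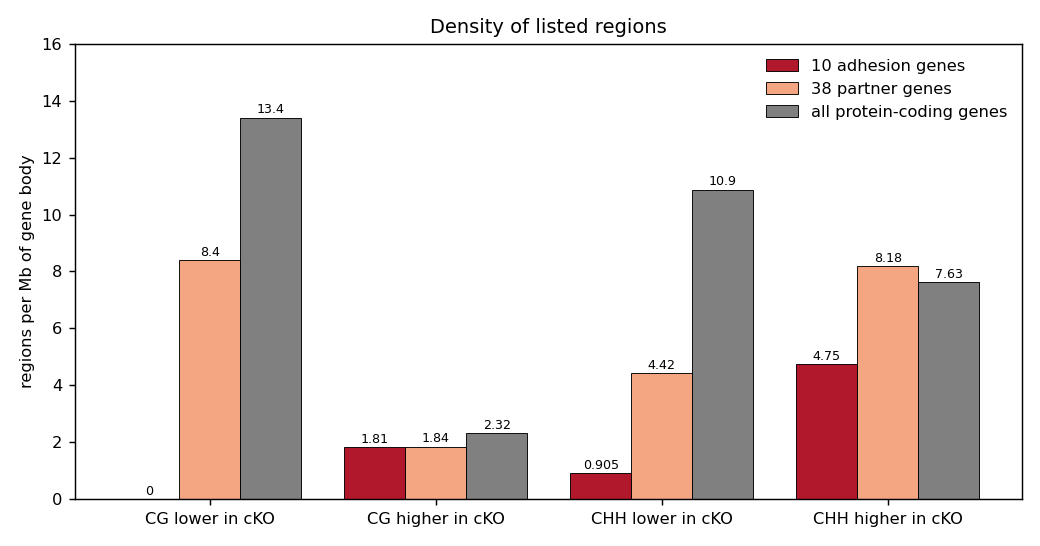
Number of listed regions per Mb of gene body (y axis) for CG and CHH regions lower and higher in cKO, in the 10 adhesion genes, 38 partner genes and all protein-coding genes. The adhesion genes have no bar for lower CG regions (0 per Mb against 13.4) and bars for higher regions (1.81 and 4.75 per Mb) below those of all genes (2.32 and 7.63), which for CG does not hold without Ptprd (3.26).

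Among latrophilins, regions were concentrated in Adgrl2 (chromosome 3, 148815586 to 148989096), with 8 in 173.5 kb, or 4.61 per 100 kb. The median over genes of at least 50 kb was 2.12 per 100 kb. Its CG region near the low-coordinate end of the gene (148817563 to 148817677, 14 cytosines) was already highly methylated, at 84.9% in control and 95.2% in cKO in the authors' deposited table. Since the gene is transcribed from the minus strand, this region lay 2.03 kb from its 3′ end, and its difference of 10.3 points was the smallest among the members' CG regions. The second CG region (148948814 to 148948891, 7 cytosines) held 62.2% in control and 85.5% in cKO. It was the one nearest to a listed transcription start of any member, at 5.74 kb.

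The CHH regions of Adgrl2 held the highest levels of the members. The region from 148937446 to 148937633 (64 cytosines) reached 13.7% in cKO against 5.11% in control, a difference of 8.60 points that exceeded 94.6% of the 7856 higher CHH regions in protein-coding genes. At 558 bp from it a second region (148938192 to 148938289) held 8.78% in cKO and 1.27% in control. A region from 148864374 to 148864504 reached 12.6% against 4.82%. Another pair, 747 bp apart, lay in the 5′ part of the gene, upstream of the start that the RefSeq promoter table lists, at 5.63% against 1.22% and 9.24% against 2.91%. The only lower region of the gene (148878217 to 148878306) went from 4.56% in control to 0.823% in cKO. No other neighbouring regions of any member lay within 1 kb of each other.

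Adgrl3 (chromosome 5, 81019085 to 81827825) is the longer latrophilin gene and held 3 regions in 808.7 kb, all CHH and all higher in cKO. The strongest by area statistic (81668570 to 81668671, 38 cytosines) had authors' means of 2.25% in control and 7.23% in cKO. The others held 2.39% and 6.80%, and 1.71% and 6.86%, so that the 3 were alike in level. Adgrl1, on chromosome 8 (83900098 to 83941954), had none.

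Among LAR phosphatases, Ptprs (chromosome 17, 56412426 to 56476561) encodes PTP sigma, a receptor for heparan sulfate and chondroitin sulfate chains. It carried CG regions only. The larger (56425211 to 56425568) held 106 cytosines of CG sites in 358 bp, counted on both strands, which corresponds to 53 CG pairs. Its density of 29.6 cytosines per 100 bp compares with a median of 11.0 in higher CG regions of protein-coding genes. The authors' deposited table gives 9.69% in control and 26.7% in cKO there. By area statistic, a score that sums evidence over the cytosines, it ranked 13 of 2395 higher CG regions in protein-coding genes, and 99.5% of these had fewer cytosines. Its difference of 17.0 points was larger than that of only 10.2% of them, so its rank came with its number of cytosines. The other region (56445561 to 56445811, 30 cytosines) went from 34.0% to 62.0%, the second largest difference among the members' CG regions at 27.9 points.

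Ptprf (chromosome 4, 118208213 to 118291405), the gene of LAR itself, had 4 regions in 83.2 kb, all higher in cKO, which was the highest density of the members at 4.81 per 100 kb. A CG region 1.61 kb from its 3′ end (118209779 to 118209868, 18 cytosines) held 68.1% in control and 87.1% in cKO. This position and the high control level resemble those of the first Adgrl2 region. The CG region from 118246096 to 118246249 (15 cytosines) held 23.1% and 46.5%. Its CHH regions held 1.25% in control and 4.56% in cKO (118231877 to 118231976, 41 cytosines), and 2.90% and 7.39%.

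Ptprd (chromosome 4, 75941237 to 78211742) encodes PTP delta and held 9 regions, 0.396 per 100 kb, against a median of 1.53 in the 226 genes of at least 500 kb. Its single CG region (76325218 to 76325313, 11 cytosines) went from 19.3% in control to 38.9% in cKO in the authors' deposited table. Of 8 CHH regions 6 were higher. The strongest by area statistic (78159459 to 78159655, 67 cytosines) held 1.77% and 9.28%, and the highest cKO level was 10.5% against 4.05% (76523238 to 76523384). The region from 77980800 to 77980906 went from 0.726% to 7.01%, or 9.65-fold higher, and the other three reached 4.56%, 6.82% and 3.82%. The lower regions were at 4.12% in control and 0.765% in cKO, and at 9.96% and 2.71%, the latter the highest control CHH level of all 25.

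**Figure D3:**
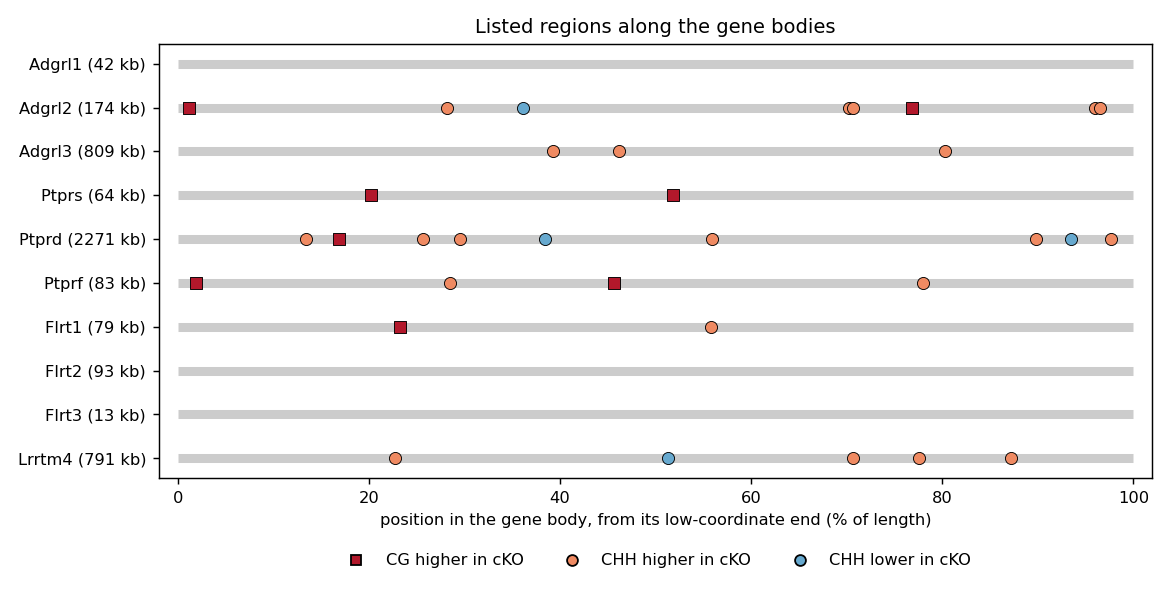
Position of each listed region along the gene body in percent of its length from the low-coordinate end (x axis), 1 line per gene with its length in kb; squares are CG and circles CHH regions, red and orange higher and blue lower in cKO. Regions are spread over the bodies of 7 genes, and Adgrl1, Flrt2 and Flrt3 have none.

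Flrt1 (chromosome 19, 7087464 to 7166183) was the only FLRT gene with a region. FLRT genes encode leucine-rich repeat proteins that act in adhesion and in repulsive guidance. Its CG region (7105767 to 7105837, 12 cytosines) had the largest CG difference of the members, 33.6 points, from 50.9% in control to 84.5% in cKO. That difference exceeded 94.0% of the higher CG regions in protein-coding genes. A CHH region (7131340 to 7131400) had the smallest difference of the 21 higher ones, 2.82 points (0.715% and 3.53%). Both lie inside Macrod1 too, a longer gene that contains Flrt1, and the CHH region also overlaps the noncoding gene Gm38621, so neither can be assigned to 1 gene. Macrod1 held 12 lower CG regions, none of which overlapped Flrt1. Flrt3, of 13.3 kb, lies within Macrod2, a gene of 1998 kb with 41 lower and 0 higher CG regions. Flrt3 carried none of them, but covers too small a part of Macrod2 for this to set it apart.

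Lrrtm4 (chromosome 6, 80018858 to 80810162) had no CG region and 5 CHH regions in 791.3 kb, 4 of them higher. The authors' deposited table gives 2.15% in control and 7.27% in cKO for the strongest (80198976 to 80199099, 44 cytosines). The other higher regions reached 4.61%, 8.85% and 3.88% in cKO. The first of these started from 0.426% in control, a 10.8-fold difference, the largest ratio among the members. The lower region (80424397 to 80424507) went from 7.52% to 1.35%.

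The levels in the members' regions were like those of the same kind of region in other genes. Among the 21 higher CHH regions, the median control level was 1.77% (range 0.426% to 5.11%) and the median cKO level 7.01% (3.53% to 13.7%). The 7856 higher CHH regions of protein-coding genes had medians of 1.71% and 6.93%. A cKO level of 10% was reached in 3 of the 21 (14.3%), in Adgrl2 and Ptprd, and in 16.2% of those in all genes. Median levels of the 8 CG regions were 42.5% in control and 73.2% in cKO, against 51.1% and 77.8% over protein-coding genes, and a median difference of 21.5 points against 24.1.

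The CpG content of the listed transcription starts is shown for Ptprs and Adgrl2. In these genes, as in every other member with a listed start and a region, the regions lay apart from the starts. RefSeq promoter windows were found for 8 of the 10 members (12 windows, GRCm38.p6), and not for Ptprd and Flrt1. In the 250 bases before each start, the members had from 3 to 36 CG pairs, against a median of 6 over 32851 windows. Of the 12 member windows, 9 were above that median. None of the 12 windows overlapped a region of the deposited table, which says nothing of their methylation level beyond that. The share of all 32851 windows that overlap a region was not computed. Only 211 CG and 42 CHH regions lay inside any window, so the absence is not read as particular to the members. The sequences read 5′ to 3′ on the minus strand, with each CG in capitals. Each Ptprs window holds 15, a number reached by 27.3% of all windows, and the outer and inner start lie 30.7 kb and 16.4 kb from the nearest region of the gene. The Adgrl2 window holds 3, a number reached by 71.0% of all windows. Its listed start, at 148954635, lies inside the gene body, whose 5′ end is at 148989096. No window was listed for that outer end, so its CG content is not given here.
Ptprs outer start, chr17:56476481-56476730: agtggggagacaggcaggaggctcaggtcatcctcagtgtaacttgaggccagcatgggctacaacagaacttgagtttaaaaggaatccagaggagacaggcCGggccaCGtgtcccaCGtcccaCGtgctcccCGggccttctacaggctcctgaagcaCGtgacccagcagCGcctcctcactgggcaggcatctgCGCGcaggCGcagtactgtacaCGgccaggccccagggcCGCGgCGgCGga
Ptprs inner start, chr17:56462222-56462471: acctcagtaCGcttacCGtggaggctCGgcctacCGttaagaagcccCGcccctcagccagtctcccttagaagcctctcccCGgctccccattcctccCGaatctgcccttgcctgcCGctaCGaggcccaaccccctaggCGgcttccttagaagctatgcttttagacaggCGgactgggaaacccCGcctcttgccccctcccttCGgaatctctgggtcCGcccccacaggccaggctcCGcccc
Adgrl2 listed start, chr3:148954636-148954885: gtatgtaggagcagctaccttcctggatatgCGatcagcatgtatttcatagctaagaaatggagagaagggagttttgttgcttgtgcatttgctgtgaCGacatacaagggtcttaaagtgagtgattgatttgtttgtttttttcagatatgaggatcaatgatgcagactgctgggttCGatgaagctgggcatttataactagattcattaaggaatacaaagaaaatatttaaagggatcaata

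Around the same genes the direction was the opposite. Within 100 kb on both sides of the 10 gene bodies, the authors' deposited table lists 62 CG regions, of which 3 were higher in cKO (4.84%), and 30 CHH regions, of which 2 were higher (6.67%). Each member had at least 1 lower CG region in these flanks, from 1 at Lrrtm4 to 15 at Adgrl2. The share of all genes with one so near was not computed. With 44497 lower CG regions listed in all, this is not read as particular to the members. Flanks can lie inside other genes: the 12 lower CG regions around Flrt1 are those of Macrod1, which contains it. The flanks of Flrt3 likewise fall at least in part in its host gene Macrod2. Where the flanks lay outside any protein-coding gene, 42 of 42 CG regions were lower, as were 99.3% of all listed CG regions outside such genes. The nearest lower CG region lay 4.09 kb beyond the 5′ end of Ptprf (57.8% in control and 27.7% in cKO). For Flrt1 it lay 5.27 kb away, inside Macrod1 (49.8% and 16.1%), and for Adgrl2 9.37 kb away (79.5% and 52.7%). The farthest was 82.2 kb from Adgrl3. The same contrast held with smaller differences over all 4934 genes of at least 50 kb, with 14.2% of CG regions higher in the bodies and 5.16% in the flanks, and 43.2% and 15.8% of CHH regions. This window was chosen after the values in the genes were known, and a region can lie in the body of 1 long gene and the flank of another.

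**Figure D4:**
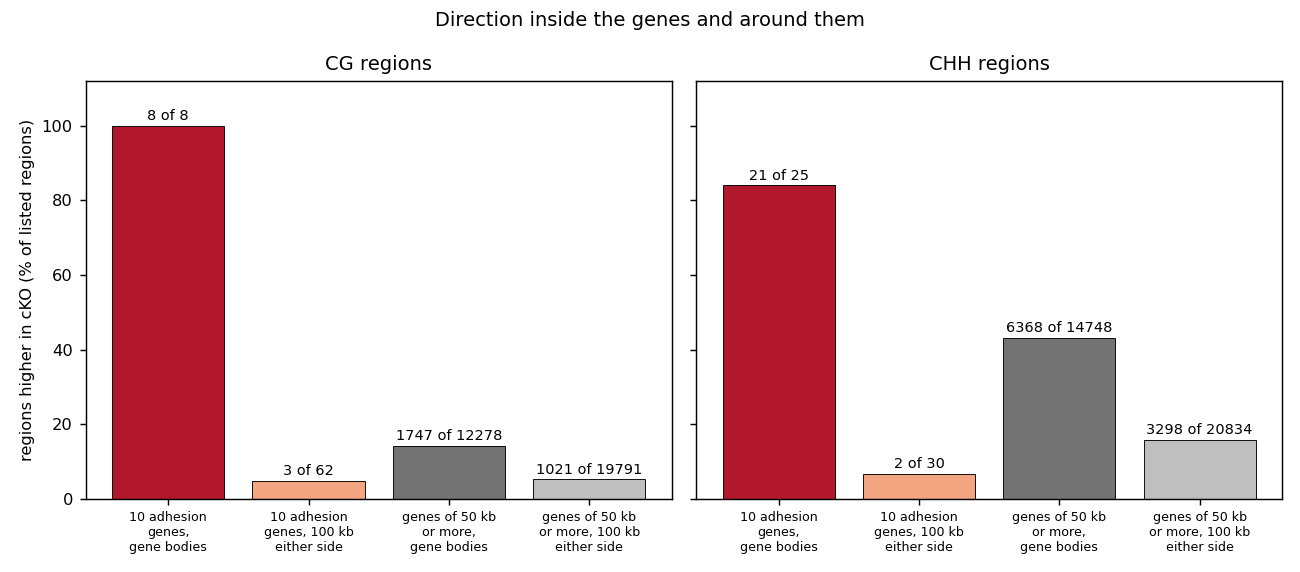
Share of listed regions that were higher in cKO (y axis, percent) for CG (left) and CHH regions (right), in the bodies of the 10 adhesion genes, within 100 kb on either side of them, and in the same places for all protein-coding genes of at least 50 kb; the counts stand above the bars. For CG the share is 8 of 8 in the bodies and 3 of 62 in the flanks, and for CHH 21 of 25 and 2 of 30.

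The absence of CG losses is not particular to these genes. Of the 226 protein-coding genes of at least 500 kb, 62 (27.4%) held 0 lower CG regions, Adgrl3, Ptprd and Lrrtm4 among them. A higher CHH region was held by 51 of the 62. The median over all 226 was 3 such regions, so holding one was common among genes of this length. Of the 2717 genes with at least 2 CG regions, 12.6% had higher ones only, as Adgrl2, Ptprs and Ptprf did. Levels on mitochondrial DNA went against the direction of the members' gains, and the same way as their 4 lower CHH regions and the 28 lower CHH regions in their flanks. There the cKO level was below the control level in 17 of 17 regions, and the 4 in CHH held from 5.43% to 19.9% in control and from 0.379% to 0.519% in cKO. The part of any difference in conversion between libraries in the members' levels was not tested.

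Genes that bind the members or act behind them held both directions, and their CG regions were mostly lower in cKO. A list of 38 such genes, drawn up from textbook knowledge, had 111 higher and 60 lower CHH regions (64.9% higher) and 25 higher and 114 lower CG regions (18.0% higher) in the authors' deposited table. Over all protein-coding genes 41.2% of CHH and 14.8% of CG regions were higher, so the CG share of the partners was near that of all genes. Their higher CHH regions were at 8.18 per Mb against 7.63, and their lower ones at 4.42 per Mb against 10.9. At least 1 region was found in 25 of the 38. Of the 114 lower CG regions, 101 lay in the latrophilin and FLRT partners, where 7.34% of CG regions were higher. The share was 57.1% in the intracellular partners of LAR phosphatases (12 higher, 9 lower). It was 55.6% in the LRRTM and neurexin group (5 higher, 4 lower). The 13 postsynaptic partners of LAR phosphatases had 0 CG regions, and their 10 higher and 2 lower CHH regions lay in 4 genes. Ntrk3, a neurotrophin receptor, had 5 higher ones, Il1rapl1 3 higher and 1 lower, Il1rapl2 1 of each and Il1rap 1 higher, while the 6 SLITRK genes, all short, had 0 regions. The 7 genes of the LRRTM and neurexin group had 31 higher and 1 lower CHH region, of which Nrxn3, a presynaptic neurexin, carried 27. Its strongest went from 2.96% to 10.5%.

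Most of the losses lay in Tenm3, a gene of the teneurins, which are ligands of latrophilins. Tenm1 had only 1 lower CG region and 0 lower CHH regions, beside 4 higher CHH regions. Tenm3 held 61 lower CG regions (strongest 68.6% to 33.1%) and 31 lower CHH regions (8.37% to 0.578%), beside 3 higher CG regions (70.3% to 88.3%) and 8 higher CHH regions. Tenm2 had 23 lower CG regions (58.7% to 31.8%) but 19 higher CHH regions (2.61% to 10.4%), with 2 higher CG and 1 lower CHH region. Tenm4 had 8 lower CG (73.0% to 34.3%) and 12 higher CHH regions (2.37% to 9.78%), with 3 higher CG and 4 lower CHH regions. Unc5b, a netrin receptor, had 16 lower CHH regions, the strongest from 14.5% to 1.005%. Behind the LAR phosphatases, Trio, a guanine nucleotide exchange factor that binds LAR, had 7 higher and 0 lower CG regions (58.2% to 85.4%). Ppfibp2, a liprin beta gene, had 4 lower CHH regions (8.93% to 1.83%). Nrxn2 held 5 higher CG regions, the strongest over 136 cytosines from 26.1% to 42.1%.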

How the data were processed

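Whole-genome bisulfite sequencing was done on 2 cKO and 2 control libraries, and the labels do not say whether they came from separate animals. Per the submitters' processing notes, CASAVA and Bowtie2 were used with the build mm10. How regions were called, with which thresholds, and how replicates entered is not given in the sources used here. The authors deposited 1 table of regions, with a mean methylation level per group as a fraction, printed here as percent, their difference in points, an area statistic that is a score with no fixed range, and a count of cytosines per region. The deposited count of cytosines covers both strands: it equalled the number of CG cytosines on both strands in 202 of 211 CG regions lying inside a RefSeq promoter window, and that of CHH cytosines in 42 of 42. Depth is unknown, so the precision of a level could not be had.

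Gene bodies came from RefSeq (GRCm38.p6, the assembly of mm10), leaving out entries that start below 3 Mb (except on the Y), where the assembly has gaps. Strand came from the RefSeq promoter table, and exons were not analysed here. Regions were assigned to each gene they overlapped by 1 bp or more. Overlap counting was tested on simulated data. Counts, medians and densities were computed with pandas 2.3.3. No test was made, since the table gives group means only. The members and lists were chosen with earlier results of these data known. For each member, regions were named by a rule taking the largest absolute area statistic per context and direction, and others to describe each gene in full. CG regions within 2 kb of a listed start were also to be named, and there were 0. Partner genes were named when among the first 3 by number of regions of a kind, and others to describe a group. No member had the 10 regions needed for a search for genes with like counts. Alternatives changed the overlap, the gene limits, the size of a region's difference and the treatment of neighbours.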

Additional observations from a re-analysis of the deposited data

How the results depend on the processing

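No paired analysis was possible because the table holds group means and no value per library, and for the same reason no library could be left out. The span of curated transcripts could not be had from the gene table, so that alternative was not run. Under 7 other settings, 16 of 21 recomputed counts of higher CG, higher CHH and lower CHH regions were within 1.5 times. The share of higher CHH regions (84.0%) ranged from 75.0% to 84.0% over these settings, most of which keep a subset of the same regions. The count of 0 lower CG regions could change only where the genes were extended. With 5 kb added there was 1 lower CG region instead of 0, beyond the 5′ end of Ptprf. With CG differences of at least 30 points and CHH differences of at least 5 points, 1 of 8 higher CG regions (in Flrt1), 10 of 21 higher CHH and 2 of 4 lower CHH regions were left. Above the median of the absolute area statistic, 6 of 8 higher CG, 6 of 21 higher CHH and 2 of 4 lower CHH regions were left. Above the mitochondrial median of 5.87 points, a filter chosen once values had been seen, 7 higher and 2 lower CHH regions were left. Some loss of regions follows from these filters' own construction. For the area statistic, which sums over cytosines, the higher CHH regions of the members were also on the low side. They had a median of 35 cytosines, against 41.5 in higher CHH regions of protein-coding genes.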

Other observations

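Relatives of the members, chosen after the members' values were known, had both directions. Of 17 other receptor tyrosine phosphatase genes in the authors' deposited table, 13 held a lower CG region. This was a larger share than the 42.5% of all protein-coding genes of at least 50 kb, a length that all but Ptprn reach. Together they had 77 lower and 5 higher CG regions (6.10% higher, against 14.8% over all protein-coding genes). Ptprs, Ptprd and Ptprf had 0 lower and 5 higher. Ptpra and Ptprk also had 0 lower CG regions, with 2 higher ones each, so CG gains alone were not particular to the LAR phosphatases. Ptprm, a homophilic adhesion phosphatase, had 25 lower CG and 23 lower CHH regions, the strongest CG region going from 58.0% in control to 26.6% in cKO. Ptpre, Ptprg, Ptprt and Ptprz1 had 7 lower CG regions each. Ptprb went from 84.9% to 46.3% in the strongest of its 6 lower CG regions, and Ptprc from 74.8% to 27.3% in its single one. Ptprr had 10 higher CHH regions and no other, the strongest from 5.63% to 18.4%. Ptpro, with 2 lower CG regions, had 8 higher CHH regions, the strongest from 3.05% to 14.2%. The CHH regions of the 17 genes were 49 higher and 44 lower (52.7% higher, against 41.2% over all protein-coding genes). The difference between these groups of genes was not tested.

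Adgrl4, a latrophilin relative, had 2 lower CG and 2 lower CHH regions and 0 higher ones. Its strongest CG region held 41.9% in control and 13.1% in cKO. The brain angiogenesis inhibitor genes Adgrb1 and Adgrb2 had 3 higher CG regions each and 0 lower (strongest 45.5% to 69.4% and 41.4% to 66.0%), and Adgrb3 had 3 higher CHH regions alone (strongest 0.478% to 6.39%).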
